A study of Homo sapiens with 24 samples.

Results

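The genes described here encode the target of the drug BAY 60-2770 and its close relatives: the soluble guanylate cyclase subunits GUCY1A1, GUCY1A2 and GUCY1B1, the natriuretic peptide receptors NPR1, NPR2 and NPR3, and the cyclic GMP (cGMP) dependent protein kinases PRKG1 and PRKG2. They were chosen by symbol as the drug target, the other cGMP-making receptors of the cell surface and the kinases that cGMP activates. Each symbol matched 1 Ensembl ID, giving 8 genes of 65180 in the deposited table, and all 8 passed the filter on low counts in both experiments of the study.

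RNA was sequenced from HK-2, an immortalised line of human proximal tubule epithelium, in 24 libraries of 6 groups, each treated for 24 h after an overnight serum starvation. Normoxic solvent controls (DMSO and acidified albumin), normoxic cells with TGF-β1 at 2 ng/mL and normoxic cells with TGF-β1 plus BAY 60-2770 had n = 5 each. Normoxic cells with BAY 60-2770 alone, hypoxic solvent controls at 0.3% oxygen and hypoxic cells with BAY 60-2770 had n = 3 each. The series text gives 2 experiments, oxygen by BAY 60-2770 and TGF-β1 by BAY 60-2770. The normoxic groups without TGF-β1 entered both. BAY 60-2770 is called BAY below. The labels give its concentration as 1 mM, which is far above the usual range for compounds of this class, so the dose behind every BAY effect is uncertain. All groups are 1 cell line, and the labels call the replicates biological without saying what separates them, and a p-value then reflects the spread of these cultures only.

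Soluble guanylate cyclase is a haem protein that joins an alpha subunit (GUCY1A1 or GUCY1A2) to the beta subunit GUCY1B1, and nitric oxide bound to the haem switches on the conversion of GTP to cGMP. Compounds such as BAY 60-2770 activate the enzyme when its haem is oxidised or lost. NPR1 and NPR2 are single-chain membrane cyclases, activated by atrial and B-type natriuretic peptides and by C-type natriuretic peptide respectively, while NPR3 has no cyclase domain and clears these peptides. The cGMP made by either route activates the kinases PRKG1 and PRKG2, gates channels and is broken down by phosphodiesterases. In the kidney the pathway is best known in vascular smooth muscle, mesangial cells and renin-producing cells, and natriuretic peptide receptors also act along the tubule.

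GUCY1A1 (ENSG00000164116) lies on the plus strand of chromosome 4 at 155666711 to 155732349, and GUCY1B1 (ENSG00000061918) follows it on the same strand at 155758992 to 155807591, with 26642 bp between them. GUCY1A2 (ENSG00000152402) lies on the minus strand of chromosome 11 at 106674012 to 107018524, and NPR1 (ENSG00000169418) on the plus strand of chromosome 1 at 153678637 to 153693992. NPR2 (ENSG00000159899) lies on chromosome 9 at 35792154 to 35809732, NPR3 (ENSG00000113389) on chromosome 5 at 32689070 to 32791724, PRKG1 (ENSG00000185532) on chromosome 10 at 50990891 to 52298350 and PRKG2 (ENSG00000138669) on chromosome 4 at 81087370 to 81215117. These positions are those of GENCODE 29 on GRCh38. Exons of the antisense RNA PRKG1-AS1 cover 169 bp (1.32%) of the PRKG1 exons, and exons of SPAG8 on the opposite strand cover 329 bp (8.51%) of the NPR2 exons. PRKG1-AS1 and SPAG8 had mean counts of 56.2 and 99.4, above the 30.7 of PRKG1 and the 38.5 of NPR2. Whether counting used strand is not given in the sources used here, so values of PRKG1 and NPR2 are uncertain.

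The sequences upstream of the 4 genes with the highest levels are shown because GUCY1A1 and GUCY1A2, whose products fill the same place in the enzyme, moved in opposite directions with TGF-β1, while NPR1 fell by the largest factor of the 8. Each is printed 5′ to 3′ on the gene's own strand from 250 bases before the RefSeq start (GRCh38.p14) to the base before the first exon of GENCODE 29, with matches to the searched motifs in capitals. GUCY1A1 has 2 RefSeq starts in the table, and the window of the first listed is shown.
GUCY1A1 (chr4:155666598-155666710, plus strand): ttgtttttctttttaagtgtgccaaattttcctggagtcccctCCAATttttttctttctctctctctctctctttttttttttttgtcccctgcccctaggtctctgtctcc
GUCY1A2 (chr11:107018525-107018726, minus strand): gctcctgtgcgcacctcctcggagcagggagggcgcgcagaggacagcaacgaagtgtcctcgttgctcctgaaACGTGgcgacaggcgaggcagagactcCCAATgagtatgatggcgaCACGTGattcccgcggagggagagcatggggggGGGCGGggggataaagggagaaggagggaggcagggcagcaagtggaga
GUCY1B1 (chr4:155758771-155758991, plus strand): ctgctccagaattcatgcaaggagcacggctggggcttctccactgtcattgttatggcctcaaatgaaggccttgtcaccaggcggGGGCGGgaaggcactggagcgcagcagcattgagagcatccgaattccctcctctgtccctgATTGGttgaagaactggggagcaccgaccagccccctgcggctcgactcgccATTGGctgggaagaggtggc
NPR1 (chr1:153678438-153678636, plus strand): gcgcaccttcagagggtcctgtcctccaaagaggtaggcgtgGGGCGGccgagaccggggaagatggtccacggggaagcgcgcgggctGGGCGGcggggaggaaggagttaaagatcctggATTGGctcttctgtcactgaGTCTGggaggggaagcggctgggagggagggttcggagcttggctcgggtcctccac

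The motifs were searched on both strands over the whole 250 bases. CAGAC, the core bound by SMAD proteins, was matched once each in GUCY1A1 (in the unprinted stretch) and NPR1 (printed as GTCTG), and 38.0% of all 35116 RefSeq windows of this length hold it. ACGTG, the core of hypoxia response elements, was matched 3 times in GUCY1A2, where 2 of the matches are the overlapping strands of CACGTG, and 18.5% of all windows hold it. The GC box GGGCGG was matched in all 4 genes and occurs in 42.6% of windows, and CCAAT (or ATTGG) was matched in all 4 and occurs in 32.0%. TGACG, the core of cAMP response elements, TATAAA and the E-box CACCTG were matched in none of the 4, against 21.2%, 10.7% and 17.5% of all windows. GC content of the 250 bases was 47.2% for GUCY1A1, 66.0% for GUCY1A2, 60.8% for GUCY1B1 and 67.6% for NPR1, against a median of 58% over all windows. The window of the other GUCY1A1 start held 1 CAGAC match and no match to the other motifs. A match describes letters only, and no binding was measured.

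Totals ran from 78862528 to 105571250 estimated counts per library, so counting error is small for the 4 abundant genes and limits NPR3, PRKG1, NPR2 and PRKG2. Of 9 kidney epithelial markers all 9 were at 1 CPM or more, but only 4 of 11 proximal tubule markers were, with the organic anion transporters SLC22A6 at 0 and SLC22A8 at 0.00444 CPM. The lists of other cell types were mixed. The endothelial markers PECAM1 and CDH5 (0.0307 and 0.0013 CPM), the immune markers PTPRC and CD3E (0.0224 and 0 CPM), the smooth muscle markers MYH11 and DES (0.0169 and 0.0936 CPM), the fibroblast collagens COL1A2 and COL3A1 (0.00994 and 0.0192 CPM) and the podocyte marker NPHS1 (0.0325 CPM) were at or near 0. Yet 7 of 9 smooth muscle and pericyte markers, 3 of 6 fibroblast, 2 of 6 endothelial, 2 of 5 immune and 2 of 5 podocyte markers had a mean of 1 CPM or more. The highest were NOTCH3 (230 CPM), RGS5 (129) and SMTN (54.4) of smooth muscle, COL1A1 (112) and LUM (90.4) of fibroblasts, EGFL7 (36.4) of endothelium, CD74 (159) and CD68 (132) of immune cells and SYNPO (261) of podocytes. Within groups, the 15 libraries of the groups of 5 fell on opposite sides of 1 component of replicate deviations, which held 44.8% of the variance: side A holds solvent replicates 1, 2 and 5 and replicates 1 and 2 of both TGF-β1 groups, and side B the rest. The labels name no batch, and values within a side are given where a call was made or lost on 1 side. The sides were drawn from the spread of these same libraries, so splitting on them removes part of that spread. An adjusted p within a side can therefore be too small, and it rests on as few as 2 libraries of a group. Such values only describe how a change varied between the sides.

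Levels are given as CPM, the usual scaled count that corrects for library size, here after TMM scaling over all libraries. Between genes they are compared only per kilobase of merged exons. In normoxic solvent controls NPR1 was the most abundant of the 8 at 55.9 ± 2.31 CPM per kb (SD, n = 5). GUCY1B1 followed at 19.0 ± 0.627 and GUCY1A1 at 5.45 ± 0.157 CPM per kb, so the transcript of the shared beta subunit exceeded that of the main alpha subunit. GUCY1A2, the alternative alpha subunit, was at 0.651 ± 0.0307 CPM per kb, PRKG2 at 0.210 ± 0.0421 and NPR2 at 0.181 ± 0.0231. PRKG2 and NPR2 overlapped in range. PRKG1 was at 0.0403 ± 0.00864 and NPR3 at 0.00485 ± 0.00290 CPM per kb. Per kb of the longest coding sequence the order of the first 4 genes was the same, while PRKG1 (0.251) stood just above NPR2 (0.223 CPM per coding kb). The cyclase subunits and NPR1 were therefore measured at depth, whereas neither cGMP kinase reached 2 CPM in the mean of any group.

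**Figure D1:**
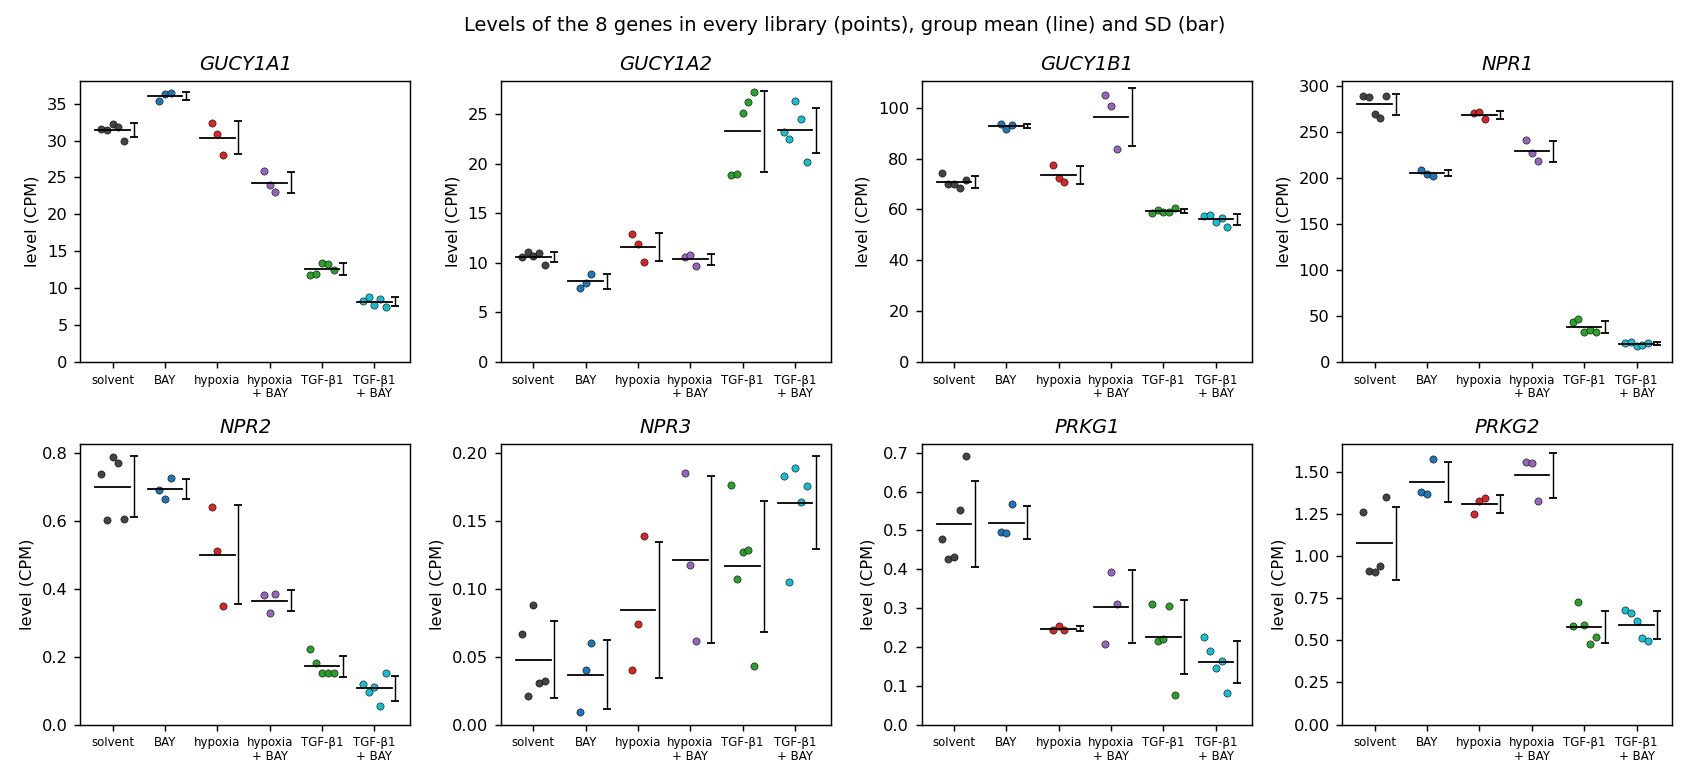
Level (CPM) of each of the 8 genes in every library by group, with the group mean as a line and the SD as a bar; each panel has its own linear axis from 0. NPR1 fell from 265 to 288 CPM in solvent controls to 32.1 to 46.4 CPM with TGF-β1, while GUCY1A2 rose from 9.81 to 11.1 CPM to 18.8 to 27.3 CPM.

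The first comparison asked what TGF-β1, a profibrotic cytokine, did to these transcripts in normoxia. Every one of the 8 genes was called at an adjusted p below 0.05 (edgeR's quasi-likelihood test with Benjamini-Hochberg adjustment over all 21639 genes, 2-sided, as for every adjusted p of a gene below), and 6 fell while GUCY1A2 and NPR3 rose. In this comparison 62% of all tested genes were called, 29.5% higher and 32.5% lower, so many genes changed and the count alone does not set these 8 apart. Their median log2 fold change was -1.09, against -0.0429 over all genes tested. Fewer cells making a transcript and less transcript per cell cannot be told apart in these bulk libraries.

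NPR1, the receptor of atrial and B-type natriuretic peptides, was at 288, 287, 270, 265 and 288 CPM in solvent replicates 1 to 5 and at 43.8, 46.4, 32.6, 34.3 and 32.1 CPM in TGF-β1 replicates 1 to 5. The groups lay far apart, and NPR1 was 7.662-fold lower with TGF-β1 (log2 fold change -2.94, SE 0.0894, edgeR adjusted p = 7.97e-15). The lower TGF-β1 values were the side B libraries, and the log2 fold change was -2.70 within side A and -3.05 within side B. NPR2, the receptor of C-type natriuretic peptide, fell from 0.700 ± 0.0894 to 0.171 ± 0.0310 CPM (SD, n = 5 each; log2 fold change -2.07, SE 0.199, edgeR adjusted p = 3.54e-08), on 13 to 19.9 counts per TGF-β1 library, with -1.70 within side A and -2.38 within side B. NPR3, the clearance receptor, was called higher by 1.20 on the log2 scale (SE 0.445, edgeR adjusted p = 0.026), but on only 2 to 16 counts per library, with ranges that overlapped (0.0208 to 0.0884 and 0.0431 to 0.177 CPM). That call held within side A (1.75, edgeR adjusted p = 0.0395) and was lost within side B (0.68, edgeR adjusted p = 0.409) and without solvent replicate 2, 4 or 5 or TGF-β1 replicate 1 (1.00 to 1.09, edgeR adjusted p = 0.0576 to 0.075). Both natriuretic peptide receptors with a cyclase domain thus fell, and the receptor without one did not.

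GUCY1A1 was at 31.5, 31.5, 32.3, 31.9 and 29.9 CPM in solvent replicates 1 to 5 and at 11.8, 11.9, 13.4, 13.3 and 12.4 CPM with TGF-β1. No library of one group reached the other, and the gene was 2.59-fold lower (log2 fold change -1.37, SE 0.0487, edgeR adjusted p = 2.54e-14). Its partner GUCY1B1 fell less, from 74.5, 70.0, 70.0, 68.4 and 71.8 CPM to 58.4, 59.7, 59.1, 59.2 and 60.6 CPM (log2 fold change -0.31, SE 0.0263, edgeR adjusted p = 7.96e-09). The alternative alpha subunit GUCY1A2 went the other way, from 10.6, 11.1, 10.7, 11.0 and 9.81 CPM to 18.8, 18.9, 25.2, 26.2 and 27.3 CPM, a 2.115-fold rise (log2 fold change 1.08, SE 0.105, edgeR adjusted p = 5.64e-08). TGF-β1 replicates 1 and 2 (side A) were the lower of the 5, and the log2 fold change was 0.82 within side A and 1.25 within side B.

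The kinases were called lower as well. PRKG2, the membrane-bound cGMP kinase, was at 1.26, 0.913, 0.904, 0.943 and 1.35 CPM in solvent replicates and at 0.587, 0.730, 0.590, 0.480 and 0.517 CPM with TGF-β1 (log2 fold change -0.94, SE 0.151, edgeR adjusted p = 2.49e-05). PRKG1, the cytosolic cGMP kinase, dropped from a mean of 0.5165 ± 0.111 to 0.2248 ± 0.0949 CPM (SD, n = 5 each, a log2 change of -1.25, SE 0.293, edgeR adjusted p = 0.00113), on 7 to 28 counts per TGF-β1 library. The groups did not overlap for either kinase. Marker lists moved in the same comparison. The summed level of the 11 proximal tubule markers ran from 191.5 to 225 CPM in solvent controls and from 81.1 to 107.5 CPM with TGF-β1, nearly all of it GGT1, since the other 10 summed to 7.147 to 9.407 and 3.717 to 5.548 CPM. The 9 smooth muscle and pericyte markers summed to 327.3 to 331.6 and 407.9 to 483 CPM. The 6 fibroblast markers summed to 106.2 to 130.7 and 281.9 to 293.5 CPM, with COL1A1 at 33.44 to 38.4 and 219.5 to 238.4 CPM. The sum of the other 5, mostly LUM, was lower with TGF-β1 (71.33 to 92.56 and 54.01 to 65.91 CPM). The 5 immune markers summed to 363.4 to 389 and 222.8 to 255.1 CPM, and the 5 podocyte markers to 67.95 to 88.99 and 30.83 to 51.6 CPM. CD74 made 243.3 to 272.5 and 130 to 147 CPM of the immune sums, and SYNPO 60.88 to 81.75 and 27.17 to 46.16 CPM of the podocyte sums. The 9 kidney epithelial markers overlapped, at 1705 to 1956 and 1728 to 2042 CPM. Of these KRT8 was higher with TGF-β1 (563.3 to 660.8 and 755.1 to 901.7 CPM). The part of these markers in the changes of the 8 genes was not tested.

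The next comparison asked what BAY added to the effect of TGF-β1. Of the 8 genes 3 were called, all lower: NPR1, GUCY1A1 and NPR2. Over all genes 29.5% were called, 13.9% higher and 15.6% lower, and the median log2 fold change was -0.26 for the 8 genes against 0.00597 for all. NPR1 was at 20.2, 21.2, 17.4, 18.5 and 21.0 CPM with TGF-β1 plus BAY, below every library with TGF-β1 alone (log2 fold change -0.93, SE 0.0866, edgeR adjusted p = 2.75e-07). Within side A the change was -1.12 and within side B -0.78. GUCY1A1 was at 8.27, 8.86, 7.69, 8.51 and 7.50 CPM, likewise below every library with TGF-β1 alone (log2 fold change -0.60, SE 0.0493, edgeR adjusted p = 3.49e-08). Both transcripts, already lowered by TGF-β1, were thus lower still with the activator. Proximal tubule markers summed to 57.04 to 79.94 CPM with both agents against 81.1 to 107.5 CPM with TGF-β1 alone, nearly all of it GGT1. Fibroblast markers summed to 244.9 to 270.1 against 281.9 to 293.5 CPM, with COL1A1 lower. Sums of the other lists overlapped, but kidney epithelial markers without KRT8 were lower (765.8 to 954.1 against 962 to 1142 CPM). CD74 and smooth muscle markers without NOTCH3 were lower too. The part of these markers was not tested.

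NPR2 was called lower by -0.67 (SE 0.216, edgeR adjusted p = 0.0337), on 5 to 13 counts per library with both agents, and the call was lost in 8 of its alternatives, among them within side A (-0.92, edgeR adjusted p = 0.0574) and side B (-0.49, edgeR adjusted p = 0.284) and without TGF-β1 replicate 1 or 2 or TGF-β1 plus BAY replicate 2 or 4 (edgeR adjusted p = 0.0593 to 0.145). GUCY1B1 stood at 57.5, 58.0, 55.2, 56.5 and 53.0 CPM with both agents below the lowest library with TGF-β1 alone (58.4 CPM), but its change of -0.07 was not called (SE 0.0264, edgeR adjusted p = 0.0651). It was called with DESeq2 (-0.08, adjusted p = 0.0222), with RLE scaling (-0.08, edgeR adjusted p = 0.0409) and within side B (-0.10, edgeR adjusted p = 0.0159), but not within side A (-0.03, edgeR adjusted p = 0.477). GUCY1A2 stood at 23.2, 22.6, 26.4, 24.6 and 20.2 CPM, and its group mean of 23.39 ± 2.31 CPM lay beside the 23.29 ± 4.08 CPM of TGF-β1 alone (SD, n = 5 each; log2 fold change 0.02, SE 0.103, edgeR adjusted p = 0.905). Its change had opposite signs on the sides, 0.27 within side A (edgeR adjusted p = 0.016) and -0.12 within side B. PRKG2, PRKG1 and NPR3 were not called (log2 fold changes 0.05, -0.45 and 0.50 with SE 0.153, 0.309 and 0.402).

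**Figure D2:**
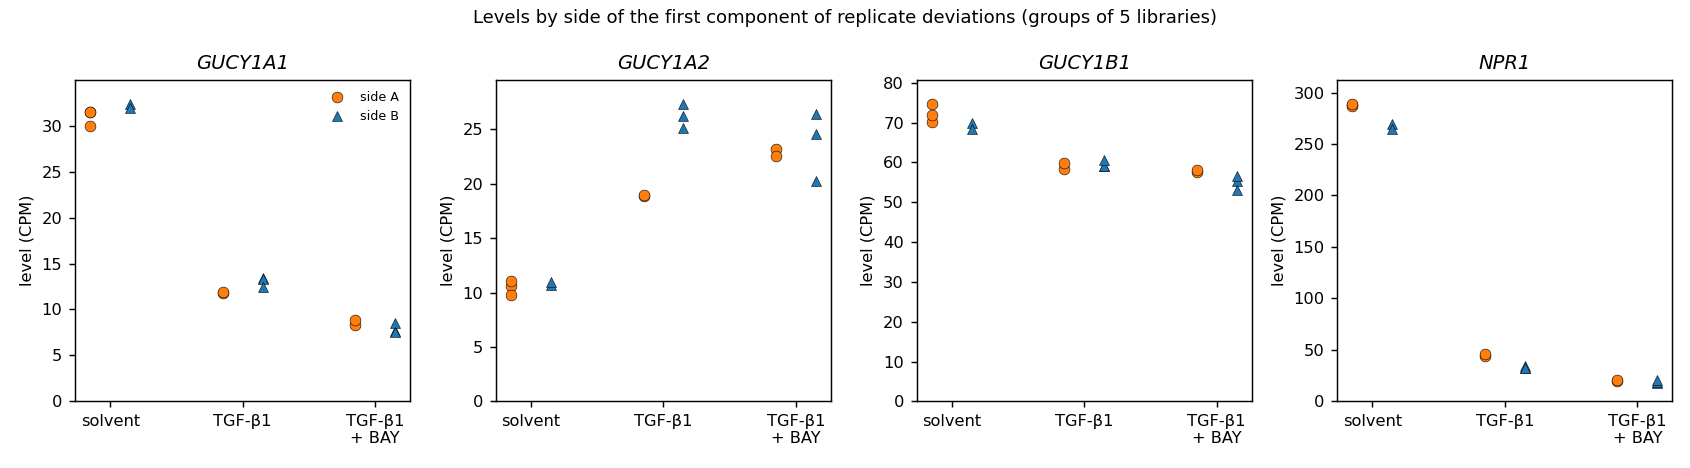
Level (CPM, linear axes from 0) of GUCY1A1, GUCY1A2, GUCY1B1 and NPR1 in the 3 groups of 5 libraries, with circles for side A and triangles for side B of the first component of replicate deviations. With TGF-β1 alone the side A libraries of GUCY1A2 are at 18.8 and 18.9 CPM and the side B libraries at 25.2 to 27.3 CPM, while NPR1 is higher on side A.

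Without TGF-β1, BAY in normoxia moved the genes in another pattern. Of the 8, 5 were called: GUCY1A1, GUCY1B1 and PRKG2 rose and GUCY1A2 and NPR1 fell. Over all genes 43.9% were called, 20.6% higher and 23.3% lower, and the medians were 0.00532 for the 8 genes and 0.00408 for all. This comparison shares its solvent controls with those of TGF-β1 and of hypoxia. GUCY1B1 was at 93.5, 91.8 and 93.2 CPM with BAY, above the highest solvent control of 74.5 CPM (log2 fold change 0.40, SE 0.0550, edgeR adjusted p = 2.84e-05). GUCY1A1 was at 35.4, 36.2 and 36.5 CPM, above the highest control of 32.3 CPM (log2 fold change 0.21, SE 0.0495, edgeR adjusted p = 0.00328). The main alpha and the beta subunit of the drug's target thus both rose, by less than 1.5-fold. Against the side B controls alone the GUCY1A1 change was 0.16 and not called (edgeR adjusted p = 0.0524), and against those of side A it was 0.22 (edgeR adjusted p = 0.00331).

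GUCY1A2 was at 7.49, 7.99 and 8.90 CPM with BAY, below the lowest control of 9.81 CPM (log2 fold change -0.38, SE 0.0822, edgeR adjusted p = 0.00147). NPR1 was at 208, 204 and 202 CPM, below the lowest control of 265 CPM (log2 fold change -0.44, SE 0.0352, edgeR adjusted p = 7.53e-08). PRKG2 was at 1.38, 1.37 and 1.58 CPM and just above the highest control of 1.35 CPM (log2 fold change 0.43, SE 0.146, edgeR adjusted p = 0.025). The PRKG2 call is fragile, since it was lost without any 1 of the 3 BAY libraries (0.35 to 0.46, edgeR adjusted p = 0.0569 to 0.137), without solvent replicate 2 or 3 (0.38, edgeR adjusted p = 0.0507 to 0.0577) and against the side A controls (0.29, edgeR adjusted p = 0.129), while against those of side B it was 0.64 (edgeR adjusted p = 0.00417). NPR2, PRKG1 and NPR3 were not called, with log2 fold changes of -0.01, 0.02 and -0.36 (SE 0.188, 0.219 and 0.660). The 11 proximal tubule markers summed to 304 to 315.4 CPM with BAY against 191.5 to 225 CPM in solvent controls. GGT1 made 290.7 to 301.5 and 183.5 to 216.1 CPM of this, and the other 10 markers 13.3 to 13.94 and 7.147 to 9.407 CPM. The 9 kidney epithelial markers went the other way, at 1507 to 1559 against 1705 to 1956 CPM. Of these KRT8 was at 355.2 to 375.1 against 563.3 to 660.8 CPM, and the other 8 overlapped. Against the same controls the immune markers were lower with BAY (245.8 to 256 CPM), with CD74 at 140.7 to 146.4 against 243.3 to 272.5 CPM. Smooth muscle and pericyte markers were lower too, at 287.7 to 297 against 327.3 to 331.6 CPM. NOTCH3 was higher (144.4 to 150.7 against 110.2 to 124.9 CPM) and the other 8 lower (139 to 147.7 against 204.3 to 217.4 CPM). Podocyte markers were higher, at 101.5 to 106.1 against 67.95 to 88.99 CPM, nearly all of it SYNPO. The fibroblast markers were higher (160.2 to 167.5 CPM). COL1A1 overlapped its controls (34.6 to 35.76 and 33.44 to 38.4 CPM). The rise lay in the summed level of the other 5 fibroblast markers, at 124.9 to 131.7 against 71.33 to 92.56 CPM. LUM made nearly all of that sum. In no library of any group did DCN exceed 5.96 CPM or COL1A2, COL3A1 or PDGFRA exceed 0.211 CPM. The part of these markers was not tested.

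Hypoxia alone left the abundant members near their control levels. Only 2 of the 8 genes were called, PRKG1 and NPR2, both lower, while 60.8% of all genes were called, 29.2% higher and 31.6% lower. The median log2 fold change was -0.0136 for the 8 genes and -0.0189 for all genes. PRKG1 was at 0.243, 0.255 and 0.244 CPM in hypoxia, on 21 to 24 counts per library, and at 0.478, 0.426, 0.432, 0.554 and 0.693 CPM in normoxia (log2 fold change -1.07, SE 0.236, edgeR adjusted p = 0.000963). The 3 hypoxic libraries lay below all controls. NPR2 was at 0.639, 0.510 and 0.348 CPM, with 1 library inside the control range of 0.602 to 0.786 CPM (log2 fold change -0.50, SE 0.194, edgeR adjusted p = 0.0348), and its call was lost under 10 of its alternatives, among them without normoxic solvent replicate 1, 3 or 4 or hypoxic replicate 2 or 3 (-0.30 to -0.50, edgeR adjusted p = 0.057 to 0.19). Against the side A controls it was -0.37 and not called (edgeR adjusted p = 0.144), and against those of side B -0.64 (edgeR adjusted p = 0.0333).

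The 3 cyclase subunits were not called in hypoxia. GUCY1A1 was at 32.3, 30.8 and 28.0 CPM (log2 fold change -0.06, SE 0.0501, edgeR adjusted p = 0.281), GUCY1B1 at 77.5, 72.5 and 70.9 CPM (0.04, SE 0.0557, edgeR adjusted p = 0.583) and GUCY1A2 at 12.9, 11.9 and 10.1 CPM (0.11, SE 0.0808, edgeR adjusted p = 0.252). All 3 overlapped the controls. NPR1 was at 270, 271 and 264 CPM (log2 fold change -0.08, SE 0.0348, edgeR adjusted p = 0.0736), with -0.10 against the side A controls (edgeR adjusted p = 0.0238) and 0.0057 against those of side B. PRKG2 and NPR3 were not called (0.27 and 0.76, SE 0.147 and 0.600), although PRKG2 was called against the side B controls (0.50, edgeR adjusted p = 0.0105) and not against those of side A (0.15, edgeR adjusted p = 0.402). For the cyclase subunits and NPR1 the standard errors ran from 0.0348 to 0.0808, so changes of the size seen for GUCY1A1, GUCY1A2 or NPR1 with TGF-β1 would have been detectable. Of the marker lists, the podocyte markers summed to 449.4 to 482.2 CPM in hypoxia against 67.95 to 88.99 CPM in normoxia, nearly all of it SYNPO, an actin-binding protein, while the other 4 summed to 4.25 to 4.848 against 6.593 to 7.28 CPM. The smooth muscle and pericyte markers summed to 484.5 to 510.7 against 327.3 to 331.6 CPM. NOTCH3 was at 266.3 to 309 against 110.2 to 124.9 CPM, with the other 8 overlapping. The 9 kidney epithelial markers summed to 2063 to 2149 against 1705 to 1956 CPM. Of these KRT8 overlapped and the other 8 were higher, at 1510 to 1558 against 1141 to 1300 CPM. Their part in the values of the 8 genes was not tested.

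With BAY in hypoxia 3 of the 8 genes were called: GUCY1B1 rose and GUCY1A1 and NPR1 fell. Over all genes 37.9% were called, 16.5% higher and 21.4% lower, and the medians were -0.00564 for the 8 genes and -0.0247 for all. GUCY1B1 was at 105, 101 and 83.6 CPM, above the hypoxic controls at 70.9 to 77.5 CPM (log2 fold change 0.38, SE 0.0624, edgeR adjusted p = 0.00017). GUCY1A1 was at 25.9, 24.0 and 23.0 CPM, below the hypoxic controls at 28.0 to 32.3 CPM (log2 fold change -0.33, SE 0.0564, edgeR adjusted p = 0.000223). NPR1 was at 240, 226 and 219 CPM against 264 to 271 CPM (log2 fold change -0.24, SE 0.0389, edgeR adjusted p = 0.000135), a call lost when all 24 libraries were fitted together (-0.24, edgeR adjusted p = 0.0595). GUCY1A2, NPR2, PRKG1, PRKG2 and NPR3 were not called (log2 fold changes -0.18, -0.46, 0.28, 0.17 and 0.53). The smooth muscle and pericyte markers summed to 724 to 745.8 CPM in hypoxia with BAY and 484.5 to 510.7 CPM in hypoxia alone, where NOTCH3 went to 543.6 to 556.8 CPM and the other 8 were lower, at 180.3 to 189 against 198.9 to 218.2 CPM. The podocyte markers summed to 1223 to 1350 against 449.4 to 482.2 CPM, with SYNPO alone at 1221 to 1348 CPM. The fibroblast markers summed to 223.3 to 240.9 against 121.9 to 129.5 CPM. COL1A1 overlapped (39.98 to 44.08 and 40.45 to 44.38 CPM). The sum of the other 5, nearly all of it LUM, was higher, at 182.5 to 196.8 against 77.85 to 86.16 CPM. The 9 kidney epithelial markers overlapped, at 1972 to 2131 and 2063 to 2149 CPM, although KRT8 was lower (415.4 to 451.4 against 553.3 to 591.2 CPM). Their part in the changes was not tested.

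**Figure D3:**
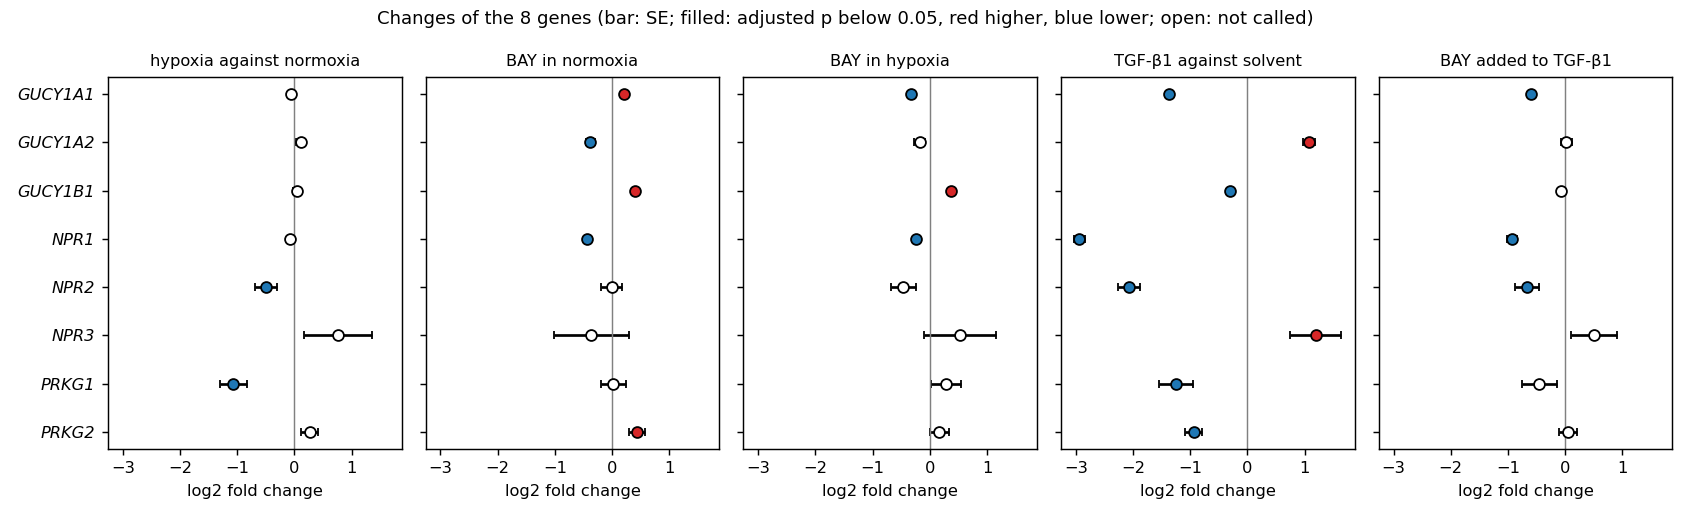
Log2 fold change (point) and SE (bar) of each gene in 5 comparisons on 1 shared axis, filled where the adjusted p was below 0.05 (red higher, blue lower) and open otherwise. The TGF-β1 panel has all 8 points filled, from NPR1 at -2.94 to NPR3 at 1.20, and the hypoxia panel 2.

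The effect of BAY on GUCY1A1 therefore had opposite signs with oxygen: 0.21 in normoxia and -0.33 in hypoxia, and the interaction of oxygen and BAY was -0.54 (SE 0.0750, edgeR adjusted p = 0.000187). NPR1 was lowered less in hypoxia (interaction 0.20, SE 0.0522, edgeR adjusted p = 0.0169), a call lost in 4 alternatives, among them without hypoxia with BAY replicate 1 (0.16, edgeR adjusted p = 0.0588) and with the side B controls (0.16, edgeR adjusted p = 0.0803, against 0.27 and 0.00124 with those of side A). These were the 2 of 8 genes called in the interaction, where 16.8% of all genes were called, 8.83% higher and 7.92% lower. For GUCY1B1 the interaction was -0.02 (SE 0.0835, edgeR adjusted p = 0.917), so no difference between its rises of 0.40 and 0.38 was detectable.

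With TGF-β1 the effect of BAY also differed. GUCY1A1 rose with BAY alone and fell with BAY on TGF-β1, with an interaction of -0.79 (SE 0.0730, edgeR adjusted p = 3.44e-07). For GUCY1B1, which rose with BAY alone and was not called on TGF-β1, the interaction was -0.45 (SE 0.0400, edgeR adjusted p = 2.42e-07). For NPR1, lowered by BAY in both settings, it was -0.47 (SE 0.128, edgeR adjusted p = 0.0137), with -0.66 within side A and -0.39 within side B. These 3 of 8 genes were called, all lower, where 20.7% of all genes were called, 13.7% higher and 7.08% lower. GUCY1A2 had an interaction of 0.42 that was not called (SE 0.161, edgeR adjusted p = 0.0749). It was called within side A (0.62, edgeR adjusted p = 0.000374), with DESeq2 (0.41, adjusted p = 0.0409) and without TGF-β1 replicate 5 or TGF-β1 plus BAY replicate 5 (0.49 and 0.48, edgeR adjusted p = 0.035 and 0.0458), but not within side B (0.30, edgeR adjusted p = 0.164). NPR2 was called within side A only (-1.04, edgeR adjusted p = 0.0399, against -0.31 and 0.664 within side B).

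The balance of the subunit transcripts was read as the log2 ratio of counts within a library, which does not depend on library scaling. The GUCY1A1 to GUCY1B1 ratio was -1.242, -1.154, -1.115, -1.101 and -1.263 in solvent replicates 1 to 5 and -2.314, -2.330, -2.138, -2.155 and -2.284 with TGF-β1. The ratio was 2.098-fold lower with TGF-β1 (exact 2-sided permutation test, p = 0.00794, the smallest these groups allow, 0.0198 adjusted over 5 comparisons). With BAY on TGF-β1 it was lower by a further -0.54 on the log2 scale, at -2.844 to -2.711 (exact permutation p = 0.00794, adjusted 0.0198). In hypoxia BAY moved the mean from -1.278 to -1.984 with no overlap, but 3 against 3 libraries cannot go below an exact permutation p of 0.1, which is the value found. BAY in normoxia moved it from -1.175 to -1.366 (exact permutation p = 0.0357, adjusted 0.0595), and hypoxia alone to -1.278 with overlap (exact permutation p = 0.107).

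The GUCY1A1 to GUCY1A2 ratio, added after the levels had been seen, crossed equal counts with TGF-β1. Solvent controls had 2.953 counts of GUCY1A1 for each count of GUCY1A2, TGF-β1 cells 0.5454 and TGF-β1 plus BAY cells 0.3499 (geometric means, n = 5 each). In log2 terms the libraries ran from 1.504 to 1.607, from -1.132 to -0.6736 and from -1.779 to -1.348, with no overlap between any of the groups. Both steps had an exact permutation p = 0.00794 (adjusted 0.0198 over 5 comparisons). BAY alone moved the ratio the other way, to 4.444 (log2 difference 0.59, exact permutation p = 0.0179, adjusted 0.0223), and hypoxia lowered it slightly, to 2.622 (log2 difference -0.17, exact permutation p = 0.0179, adjusted 0.0223). BAY in hypoxia gave 2.345 (exact permutation p = 0.1, the smallest possible). Counts favour the longer transcript: per kb of merged exons GUCY1A1 stayed the higher with TGF-β1 (2.18 against 1.42 CPM per kb) and equal within the spread with TGF-β1 plus BAY (1.42 ± 0.0976 against 1.43 ± 0.141, SD, n = 5 each). Per coding kb GUCY1A2 was the higher with TGF-β1, at 10.2 against 6.07 CPM. Which alpha transcript is the more abundant with TGF-β1 thus depends on the length used, whereas the change of the ratio does not.

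**Figure D4:**
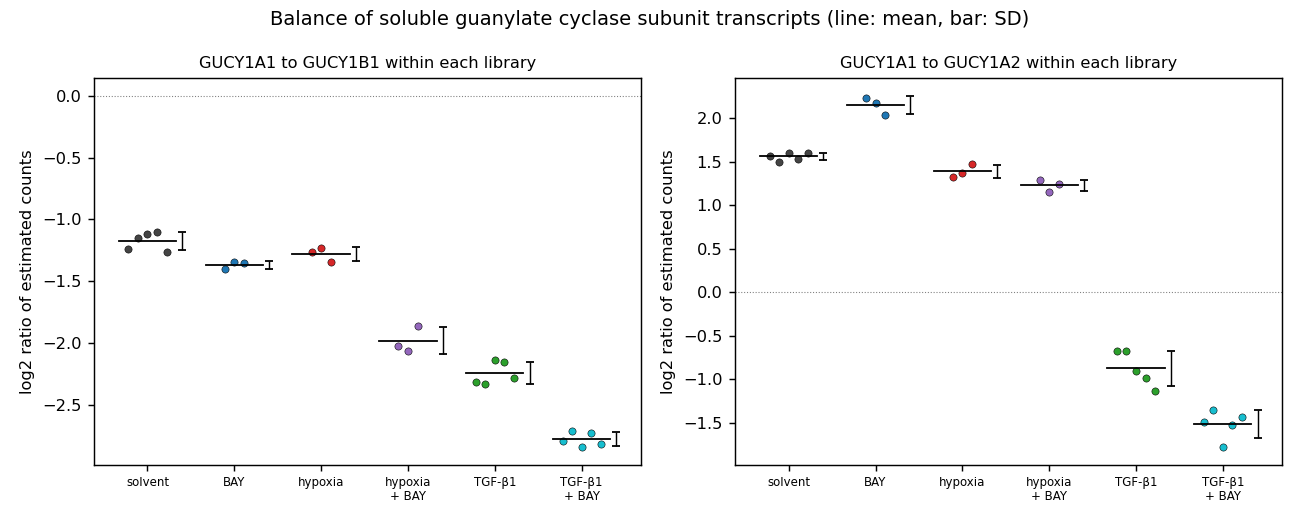
Log2 ratio of estimated counts within each library (points) for GUCY1A1 to GUCY1B1 and GUCY1A1 to GUCY1A2 by group, with mean (line) and SD (bar); the dotted line marks equal counts. The second ratio lies between 1.504 and 1.607 in solvent controls and below 0 in every library with TGF-β1.

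By group, the order of the levels differed from gene to gene. GUCY1A1 was highest with BAY in normoxia (36.03 ± 0.578 CPM), next in solvent controls (31.42 ± 0.907) and hypoxia (30.39 ± 2.21), whose ranges overlapped, then in hypoxia with BAY (24.3 ± 1.43), TGF-β1 (12.56 ± 0.778) and TGF-β1 with BAY (8.168 ± 0.563). GUCY1B1 was highest in hypoxia with BAY (96.47 ± 11.3 CPM) and BAY (92.85 ± 0.941), which overlapped, followed by hypoxia and solvent, which overlapped, and was lowest with TGF-β1 plus BAY (56.05 ± 2.02). GUCY1A2 was highest in both TGF-β1 groups, which overlapped, and lowest with BAY in normoxia (8.127 ± 0.718 CPM). NPR1 was highest in solvent controls (279.7 ± 11.5 CPM) and hypoxia (268.4 ± 4.19), which overlapped, then in hypoxia with BAY (228.5 ± 11.1), BAY (204.8 ± 3.22), TGF-β1 (37.84 ± 6.73) and TGF-β1 with BAY (19.65 ± 1.65). NPR3 stayed between 1 and 17 counts in every library, and no order of its groups is given.

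The genes most alike in pattern were found by Pearson r of log2(CPM + 1) over the 24 libraries among 13972 genes, as a description without a test, since libraries share their groups. GUCY1A1 was closest to CNKSR3 (r = 0.995) and POLR1B (0.993). CNKSR3, a scaffold protein of the aldosterone response, was at 61.74 ± 0.8005 CPM in solvent controls, 27.78 ± 1.406 with TGF-β1 and 18.62 ± 0.5889 with TGF-β1 plus BAY. NPR1 was closest to AGPAT3, a lysophospholipid acyltransferase (r = 0.995), and FGF12 (0.994), and AGPAT3 went from 108.9 ± 3.017 to 49.23 ± 3.495 and 35.6 ± 2.836 CPM over the same groups. GUCY1A2 was closest to the kinase HIPK2 (0.979) and the ubiquitin ligase CBL (0.978), with HIPK2 at 359.7 ± 18.28 CPM in controls and 760.8 ± 50.02 with TGF-β1. GUCY1B1 was closest to the RNAs MIR4500HG (0.969) and FXYD6-AS1 (0.968), and MIR4500HG rose from 1.553 ± 0.1386 CPM in controls to 5.678 ± 0.1762 with BAY in normoxia. FXYD6-AS1 is an antisense RNA and its reads may not be separated from those of its partner.

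The rest of the cGMP pathway was followed in 7 lists of 59 genes, of which 45 were tested in the oxygen experiment and 43 in the TGF-β1 experiment. With TGF-β1 20 of the 43 were called higher and 15 lower, where 29.5% and 32.5% of all genes were. With BAY on TGF-β1 the counts were 8 and 11, against 13.9% and 15.6% of all genes. With BAY in normoxia 4 of the 45 were higher and 21 lower (20.6% and 23.3% of all genes), with BAY in hypoxia 6 and 19 (16.5% and 21.4%), and in hypoxia 14 and 17 (29.2% and 31.6%). In the oxygen by BAY interaction 6 were higher and 4 lower (8.83% and 7.92% of all genes), and in the TGF-β1 by BAY interaction 12 and 1 (13.7% and 7.08%).

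Upstream of soluble guanylate cyclase, 3 of 5 tested genes in the list of nitric oxide synthesis rose and 1 fell with TGF-β1, a comparison in which 29.5% of all genes were called higher and 32.5% lower. The list includes ARG2, an arginase, which is not itself an enzyme that makes nitric oxide. ARG2 ranged from 20.52 to 29.72 CPM under TGF-β1, above its solvent range of 13.47 to 19.93 CPM. Counts from this list therefore do not give a direction for nitric oxide synthesis. DDAH1, which degrades the inhibitor asymmetric dimethylarginine, fell from 58.8 ± 2.434 to 15.57 ± 0.9577 CPM (log2 fold change -1.97, SE 0.0556, edgeR adjusted p = 1.01e-15). GCH1, the first enzyme of tetrahydrobiopterin synthesis, rose from 15.46 ± 0.4093 to 34.39 ± 3.629 CPM (SD, n = 5 each; log2 fold change 1.10, SE 0.0630, edgeR adjusted p = 2.39e-11) and was higher again with BAY (0.49, edgeR adjusted p = 7.06e-06). In hypoxia 3 of the 5 fell (31.6% of all genes did), GCH1 by 1.26 on the log2 scale, while the arginase ARG2 rose by 0.88. BAY lowered GCH1 by 0.25 in normoxia and by 0.60 in hypoxia (interaction -0.35), and its TGF-β1 by BAY interaction was 0.76. DDAH1 fell with BAY by 0.35 in normoxia and by 0.57 on TGF-β1, and ARG2 rose by 0.58 with BAY in hypoxia. The synthases were low: no group mean of NOS1, NOS2 or NOS3 reached 2 CPM. Within that range NOS3 rose in hypoxia from 0.4394 ± 0.05319 (SD, n = 5) to 1.632 ± 0.08374 CPM (n = 3). NOS2 fell there from 0.5164 ± 0.05334 to 0.1959 ± 0.06429 CPM, and the ranges overlapped for neither gene. The list of cyclase haem state and maturation has 6 genes, 1 of which, ADORA2B, is an adenosine receptor that signals through cAMP and is not itself a haem or folding protein. All 6 rose with TGF-β1 (29.5% of all genes did), among them the chaperone HSP90AB1 by 0.56 and ADORA2B by 1.32. With BAY in normoxia 5 of 6 fell (23.3% of all genes did), HSP90AA1 by 0.41 and HSP90AB1 by 0.37, and ADORA2B was among the 5 (-1.41). HSP90AA1 also fell in hypoxia (-0.84) and with BAY in hypoxia (-0.57), and the redox protein TXN fell by 0.19 with BAY on TGF-β1. The chaperonin subunit CCT7 had a TGF-β1 by BAY interaction of 0.40. ADORA2B rose in hypoxia by 1.61, fell with BAY in hypoxia (-0.53) and on TGF-β1 (-0.57), and had interactions of 0.88 with oxygen and 0.87 with TGF-β1. The haem reductase CYB5R3 rose from 150.9 ± 11.09 to 201.8 ± 13.51 CPM with TGF-β1 and had an oxygen by BAY interaction of 0.36.

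Ligands of the natriuretic peptide receptors were scarce. NPPA, the gene of atrial natriuretic peptide, had group means between 0 and 0.003188 CPM, NPPB was highest in hypoxia at 0.3538 ± 0.07173 CPM (SD, n = 3) and NPPC highest in solvent controls at 0.2354 ± 0.02417 CPM (SD, n = 5). FURIN, a protease that cleaves the B-type precursor among many substrates, rose from 63.82 ± 5.868 to 324.5 ± 27.57 CPM with TGF-β1 (log2 fold change 2.30, SE 0.0712, edgeR adjusted p = 5.78e-15). MME, the peptide-degrading neprilysin, fell from 52.62 ± 4.937 to 24.56 ± 1.045 CPM (log2 fold change -1.15, SE 0.0510, edgeR adjusted p = 6.17e-13) and fell further with BAY (-0.38, edgeR adjusted p = 1.42e-05). MME also fell with BAY in hypoxia (-0.27). FURIN fell in hypoxia (-0.65) and with BAY in normoxia (-0.25) and hypoxia (-0.33), with a TGF-β1 by BAY interaction of 0.33. The sensory and gut cyclases were near 0: GUCY2C and GUCY2F had no group mean above 0.03229 CPM, and GUCY2D was highest in hypoxia at 0.4788 ± 0.1041 CPM.

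Downstream, PDE3A, a phosphodiesterase of cAMP that cGMP inhibits, rose with BAY from 1.007 ± 0.2591 (SD, n = 5) to 7.049 ± 0.3161 CPM (n = 3) in normoxia (log2 fold change 2.82, SE 0.162, edgeR adjusted p = 2.04e-09). In hypoxia it rose from 1.01 ± 0.1882 to 6.032 ± 0.3784 CPM (SD, n = 3 each; log2 fold change 2.56, SE 0.194, edgeR adjusted p = 6.4e-08). Of 11 tested phosphodiesterases it was the only one called higher with BAY in normoxia, where 5 fell, PDE6B by 0.82 (20.6% and 23.3% of all genes were called higher and lower). On TGF-β1, PDE3A was at 3.02 ± 1.211 CPM with BAY and 0.314 ± 0.1146 CPM without, with no overlap (SD, n = 5 each). PDE5A, a phosphodiesterase selective for cGMP, fell with BAY in normoxia from 2.957 ± 0.07789 to 1.897 ± 0.1995 CPM. On TGF-β1 its mean was instead higher with BAY, at 4.475 ± 0.595 against 3.374 ± 0.466 CPM, with overlapping ranges (SD, n = 5 each). PDE9A, another cGMP-selective member, was not called with BAY in normoxia (0.06, SE 0.132) and rose with BAY in hypoxia from 3.582 ± 0.2516 to 8.021 ± 0.6267 CPM (SD, n = 3 each; log2 fold change 1.15, SE 0.145, edgeR adjusted p = 1.35e-05), with an interaction of 1.09 (SE 0.196, edgeR adjusted p = 0.00143). With TGF-β1 6 of the 11 fell and 2 rose (32.5% and 29.5% of all genes), PDE6B by -1.70 and PDE3B by -1.47. PDE6B also fell in hypoxia (-1.15) and with BAY on TGF-β1 (-0.63). PDE10A rose in hypoxia from 39.67 ± 1.043 to 148.6 ± 7.62 CPM (log2 fold change 1.89, edgeR adjusted p = 7.75e-14), had an oxygen by BAY interaction of 0.46 and fell by 0.13 with BAY on TGF-β1. The exporter ABCC4 fell from 107.7 ± 2.284 to 39.02 ± 1.582 CPM with TGF-β1 (log2 fold change -1.52, SE 0.0335, edgeR adjusted p = 3.38e-17). It fell by 0.16 in hypoxia and by 0.33 with BAY there (oxygen by BAY interaction -0.40). The related exporter ABCC5 rose with TGF-β1 from 72.96 ± 1.262 to 91.04 ± 2.543 CPM (SD, n = 5 each; 0.27, edgeR adjusted p = 7.82e-07). ABCC5 fell in hypoxia (-0.49) and with BAY there (-0.26, interaction -0.23).

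Among 11 tested substrates and anchors of the kinases, RGS2, a regulator of G protein signalling that PRKG1 phosphorylates, rose with BAY from 2.788 ± 0.2031 to 6.573 ± 0.215 CPM in normoxia (log2 fold change 1.25, SE 0.0976, edgeR adjusted p = 6.08e-08). It also rose with BAY in hypoxia (1.63, SE 0.116, edgeR adjusted p = 3.05e-08) and on TGF-β1 (0.64, SE 0.0708, edgeR adjusted p = 1.56e-06), where the interaction was -0.59. VASP, an actin regulator and classic kinase substrate, fell with BAY in normoxia from 77.16 ± 8.453 to 45.91 ± 0.879 CPM (-0.74, SE 0.0628, edgeR adjusted p = 1.49e-07) and rose with TGF-β1 to 154.1 ± 14.78 CPM (0.95, SE 0.0757, edgeR adjusted p = 4.16e-09). In hypoxia VASP fell by 0.33 with BAY (interaction 0.41). KCNMA1, the large-conductance potassium channel, rose from 42.95 ± 4.492 to 185.8 ± 7.056 CPM in hypoxia (2.10, SE 0.0616, edgeR adjusted p = 4.48e-13). KCNMA1 also rose with TGF-β1 (1.09) and with BAY on TGF-β1 (0.27), and its interactions of BAY with oxygen and with TGF-β1 were 0.39 and 0.57. ITPR1, the calcium channel that IRAG1 restrains, rose in hypoxia from 17.18 ± 1.45 to 26.2 ± 1.55 CPM (0.59, SE 0.0770, edgeR adjusted p = 5.82e-06). IRAG1, which anchors PRKG1 to the endoplasmic reticulum, had no group mean above 0.1078 CPM. Transcript levels do not show the phosphorylation or activity of these proteins.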

How the data were processed

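Poly(A) RNA of HK-2 cells was sequenced in 24 libraries. The deposited values are estimated counts, 1 row per Ensembl gene, which the authors made with Salmon on GRCh38 (hg38) per the submitters' processing notes. DESeq2 is listed there too. Versions, annotation release and strand setting are not given. Of the deposited values above 0, 48.6% were not whole, and the estimated counts were rounded. Symbols matched 58919 of 65180 IDs. Totals of 78862528 to 105571250 counts leave replicate spread, not counting, as the main error except for NPR3, PRKG1, NPR2 and PRKG2. The 39 replicate pairs within groups differed beyond sampling noise (chi-square per degree of freedom 5.46 to 48.1), so no library was a copy.

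Following the series text, 2 experiments were fitted in edgeR 4.0.16 (R 4.3.3): 14 libraries for oxygen and 18 for TGF-β1, with the 8 normoxic libraries without TGF-β1 in both. Genes were kept by filterByExpr (21316 and 21639), scaled by TMM, tested by robust quasi-likelihood with 1 coefficient per group in 7 comparisons, adjusted by Benjamini-Hochberg over all genes, and called below 0.05. The SE was taken as the size of the log2 fold change over the square root of F. Levels are CPM with TMM over all libraries. Scripts were tested on simulated data. The 8 genes and the pathway and marker lists were chosen with earlier results of these data known. All 8 genes are named, and of the 59 pathway genes those called with at least 5 CPM in a group, at most 2 per list and comparison; other pathway genes were named after their values were seen, to show levels. Similar patterns were ranked among genes with at least 1 CPM. Ratios were tested by exact 2-sided permutation, adjusted over 5 comparisons.

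No main test paired samples by replicate number, and the replicate block was run only as an alternative. As a check, the deviations of every same-numbered pair were required to correlate above 0.1. This held for BAY in hypoxia (0.12 to 0.171) and BAY on TGF-β1 (0.303 to 0.534), where the block changed no call, and not elsewhere. Pairs of unlike number were not compared, so the correlations do not establish pairing. In both TGF-β1 groups replicates 1 and 2 were on side A and replicates 3 to 5 on side B. Alternatives were DESeq2 1.42.0, RLE scaling, no filter, all libraries in 1 fit, the replicate block, each side of the first component and leaving out each library.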

Additional observations from a re-analysis of the deposited data

Results flagged for a closer look

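Over all genes 16.8% were called in the oxygen by BAY interaction and 20.7% in the TGF-β1 by BAY interaction. The effect of BAY differed between settings, by the interaction test in edgeR, for 3 of the 8 genes (2 with oxygen and 3 with TGF-β1). Between hypoxia and normoxia it differed for GUCY1A1 by -0.5381 on the log2 scale, where the effect was 0.21 in normoxia and -0.33 in hypoxia. It differed for NPR1 by 0.1986, where both effects were negative (-0.44 and -0.24). Between cells with and without TGF-β1 it differed for GUCY1A1 by -0.7925 (0.21 without and -0.60 with), for GUCY1B1 by -0.4463 (0.40 and -0.07) and for NPR1 by -0.4685 (-0.44 and -0.93). No library stood apart in any of the 30 sets of 5 values examined.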

How the results depend on the processing

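The share of all genes called ran from 16.8% to 62% between the 7 comparisons. Of 56 changes of a single gene (8 genes in 7 comparisons) 26 were called. Of these, 19 were called in the same direction under every alternative, 7 lost the call in at least 1 and none reversed. Of the 30 not called, 9 were called under some alternative and 7 took the other sign under some. The 7 lost calls were NPR2 in hypoxia and with BAY on TGF-β1, GUCY1A1 and PRKG2 with BAY in normoxia, NPR1 with BAY in hypoxia and in the oxygen by BAY interaction, and NPR3 with TGF-β1. The cause of these changes was not tested, and depth limits NPR2, NPR3, PRKG1 and PRKG2.

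The number of the 8 genes called in hypoxia was 2, and 1 with DESeq2, without the filter, with all libraries in 1 fit and with the replicate block (NPR2 then -0.52, adjusted p = 0.0709), and 1 to 3 when 1 library was left out (1 without normoxic solvent replicate 1 or 3 or hypoxic solvent replicate 2). The block lost no other call. With BAY in hypoxia it was 3, and 3 to 5 when 1 library was left out, with 5 without hypoxic solvent replicate 3. In the oxygen by BAY interaction it was 2, and 1 without the filter, with all libraries in 1 fit or on side B, and 1 to 2 when 1 library was left out (1 without hypoxia with BAY replicate 1). In the TGF-β1 by BAY interaction it was 3, and 5 on side A. Over all genes, side A gave 5821 calls in the oxygen by BAY interaction (3571 with all libraries) and 7100 in the TGF-β1 by BAY interaction (4487). Because the sides were drawn from the spread of the same libraries, these larger counts are not evidence of more changed genes.

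The log2 ratio of GUCY1A1 to GUCY1B1 with BAY in normoxia stayed between -0.2128 and -0.1722 when 1 library was left out, and its exact permutation p rose to 0.0571 without solvent replicate 1 or 2. With BAY on TGF-β1 it was -0.4322 on side A against -0.5365, and the ratio of GUCY1A1 to GUCY1A2 with TGF-β1 was -2.236 on side A against -2.437.

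Signs reversed only for changes that were not called. NPR1 in hypoxia was 0.005706 on side B. PRKG1 with BAY in normoxia was -0.0002613 with all libraries in 1 fit, -0.03355 on side A and -0.06137 to 0.143 when 1 library was left out. NPR2 there was 0.09178 on side A and -0.06046 to 0.04083, and NPR3 -0.9362 to 0.06569. GUCY1B1 in the oxygen by BAY interaction was 0.002732 with DESeq2, 0.002731 with RLE scaling, 0.006096 with all libraries in 1 fit, 0.03145 on side A and -0.08327 to 0.07486 when 1 library was left out. With BAY on TGF-β1, GUCY1A2 was -0.124 on side B and -0.04806 to 0.093, and PRKG2 -0.01255 to 0.1371.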
